A study of Homo sapiens with 12 samples.

Results

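The genes described here encode enzymes that activate fatty acids, desaturate and elongate them, insert them into phospholipids, or make ether lipids, together with an oxidoreductase linked to lipid peroxidation. They were taken by gene symbol from a fixed set of 10, and 9 of them had a row in each of the 2 expression tables, among 13554 genes in the knockdown table and 13583 in the overexpression table. The elongase ELOVL5 is not analysed here. The study measured poly(A) RNA in SW480, a cell line from a human colon adenocarcinoma, in stable lines with a hairpin RNA directed at GPD1L (shGPD1L), a control hairpin (shNC), a GPD1L overexpression construct (OE) or its empty vector (Vector), with 3 libraries in each of the 4 groups. All 4 groups are thus modified SW480 lines. Each change of GPD1L is read here as 1 line against 1 control line, so that an effect of GPD1L and a difference between lines cannot be told apart. Whether the 3 libraries of each group stem from different cultures is not stated in the labels. The p-values therefore measure only the spread between these libraries, which may be technical. In bulk RNA, fewer cells of a type and less RNA per cell cannot be told apart.

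A phospholipid with a polyunsaturated acyl chain is made in steps. An acyl-CoA synthetase activates the free fatty acid, desaturases and elongases working in the endoplasmic reticulum lengthen it and add bonds, and a lysophospholipid acyltransferase places it on the glycerol backbone. Ether lipids start from dihydroxyacetone phosphate in the peroxisome, where an acyl chain is exchanged for a fatty alcohol; dihydroxyacetone phosphate is also the product that GPD1L and its relatives form from glycerol-3-phosphate. Polyunsaturated chains are the ones that oxidise most readily, and their peroxidation in membranes is the event that kills the cell in ferroptosis, which the series title names.

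Values are FPKM (fragments mapped to a gene, scaled to transcript length and to the mapped fragments of the library) as the authors deposited them, so levels are per transcript length. Changes are differences of log2(FPKM + 1), and a gene was called where the Benjamini-Hochberg adjusted p of limma over all genes tested was under 0.05. Summed over genes, the 12 libraries held 421714 to 444794 FPKM each; how many reads they rest on is unknown. GPD1L itself averaged 1.68 ± 0.49 FPKM in shGPD1L and 8.60 ± 0.55 FPKM in shNC, and 22.4 ± 0.37 FPKM in OE and 10.7 ± 0.45 FPKM in Vector (SD, n = 3 each). The knockdown of GPD1L was called (limma adjusted p = 0.00675) and missed the threshold without shNC replicate 1, 2 or 3 (0.0677, 0.0522 and 0.0836). Of 9 markers of colon epithelium, 8 had a row in the knockdown table and 9 in the overexpression table. Their summed level was 4217 to 4494 FPKM in shGPD1L and 5077 to 5439 FPKM in shNC, and 4151 to 4282 FPKM in OE and 3800.0 to 3909 FPKM in Vector. Keratins made up most of that sum. Every shGPD1L library was below every shNC library for KRT8, KRT18, KRT19 and EPCAM, while CDH1, VIL1, CDX2 and CDX1 overlapped between these groups. In OE the 3 keratin genes KRT8, KRT18 and KRT19 lay above Vector in every library, while the other 6 markers, among them EPCAM, CDH1, VIL1 and CDX2, lay below it in every library. Of the markers of other cells, 0 of 4 endothelial, 2 of 5 leukocyte and 2 of 6 fibroblast genes had rows. The fibroblast pair summed to at most 2.31 FPKM in any library, and the leukocyte pair (CD68 and CD14) to 17.3 to 32.0 FPKM. The library shGPD1L replicate 3 stood apart on the first principal component of its table, at 29.1 against -12.1 to 0.319 in the other 5.

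Of the synthetase genes of the set, ACSL4 rose in the overexpression line and ACSL3 was not called. ACSL4 (ENSG00000068366; chromosome X, 109624244 to 109733403, minus strand, GRCh38) prefers arachidonic and adrenic acid, and its loss is known to make cells resistant to ferroptosis. It was listed at 14.4, 14.3 and 14.7 FPKM in OE and at 11.7, 12.3 and 11.7 FPKM in Vector. Every OE library was above every Vector library. ACSL4 rose by 21.2% in mean FPKM, a log2 change of 0.26 (95% interval 0.14 to 0.38, SE 0.051, limma adjusted p = 0.0104). In the hairpin lines it was listed at 12.5, 12.0 and 11.7 FPKM in shGPD1L and at 14.4, 14.3 and 14.1 FPKM in shNC, again with no overlap, and the shGPD1L libraries were the lower ones. The mean was 15.6% lower in shGPD1L (log2 change -0.23, 95% interval -0.40 to -0.06, SE 0.074), which did not pass the threshold over all genes (limma adjusted p = 0.209).

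ACSL3 (ENSG00000123983; chromosome 2, 222860934 to 222944639, plus strand) activates monounsaturated fatty acids and sits on nascent lipid droplets. It was listed at 48.2, 51.5 and 49.0 FPKM in OE and at 46.1, 43.7 and 44.0 FPKM in Vector. The groups did not overlap, and the mean was 11.1% higher in OE (log2 change 0.15, 95% interval 0.04 to 0.25, limma adjusted p = 0.0504), just outside the threshold. It passed in 3 of 14 alternative analyses, with adjusted p from 0.0172 to 0.15. In the knockdown table ACSL3 was at 22.2, 22.1 and 29.6 FPKM in shGPD1L and at 22.2, 26.0 and 24.8 FPKM in shNC. The high value is that of shGPD1L replicate 3, and the groups overlapped (limma adjusted p = 0.994, 95% interval of the log2 change -0.29 to 0.29). Without that library the log2 change was -0.13 (limma adjusted p = 0.356).

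**Figure D1:**
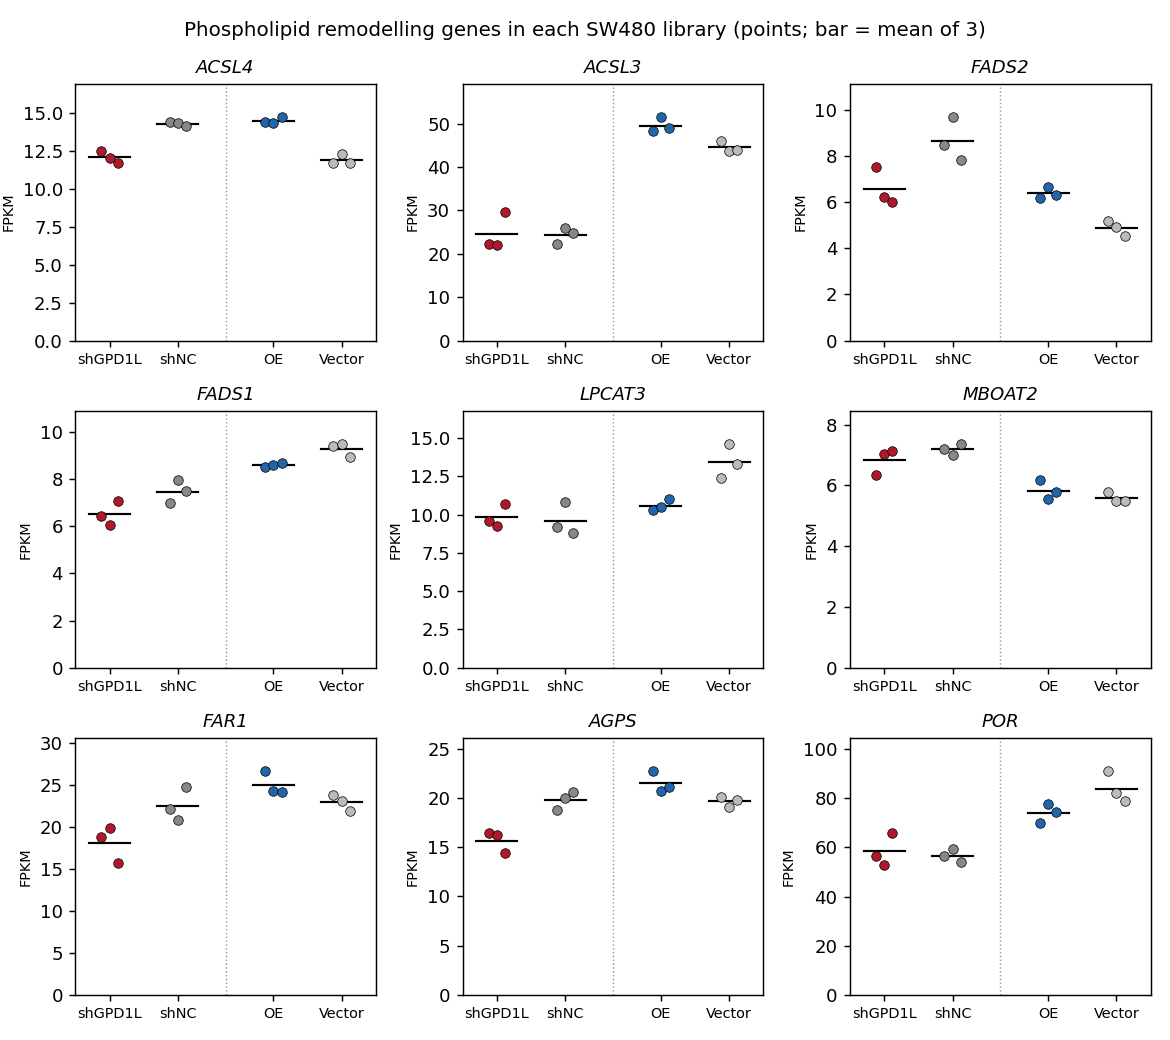
FPKM of the 9 genes in each library, from 0 on a linear axis; points are libraries, bars are means of 3, and the dotted line separates the knockdown table (left) from the overexpression table (right). ACSL4 lies at 14.3 to 14.7 FPKM in OE and 11.7 to 12.3 FPKM in Vector, and FADS2 at 6.19 to 6.67 and 4.53 to 5.18 FPKM.

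Of the neighbouring desaturase genes, FADS2 rose in the overexpression line and FADS1 was not called. FADS2 (ENSG00000134824; chromosome 11, 61792980 to 61867354, plus strand) encodes the desaturase that opens the conversion of linoleic and linolenic acid to longer polyunsaturated acids. It was listed at 6.19, 6.67 and 6.34 FPKM in OE and at 5.18, 4.93 and 4.53 FPKM in Vector, without overlap. FADS2 rose by 31.2% in mean FPKM, the largest percentage change among the 9 genes in that comparison, with a log2 change of 0.33 (95% interval 0.17 to 0.49, SE 0.070, limma adjusted p = 0.0129). In the hairpin lines it was at 7.53, 6.24 and 6.01 FPKM in shGPD1L and at 8.50, 9.70 and 7.83 FPKM in shNC. The shGPD1L libraries were all lower, by 24% in the mean, and the change was not called (log2 change -0.35, 95% interval -0.61 to -0.09, SE 0.11, limma adjusted p = 0.205).

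FADS1 (ENSG00000149485; chromosome 11, 61799625 to 61829318, minus strand) encodes the desaturase of the later step that yields arachidonic acid. It was listed at 8.52, 8.61 and 8.69 FPKM in OE and at 9.39, 9.47 and 8.92 FPKM in Vector. All OE libraries were lower, by 7.08% in the mean, and the change was not called (log2 change -0.09, 95% interval -0.22 to 0.03, limma adjusted p = 0.249). In the knockdown table FADS1 was at 6.41, 6.07 and 7.07 FPKM in shGPD1L and at 6.98, 7.94 and 7.47 FPKM in shNC, where the groups overlapped (log2 change -0.17, limma adjusted p = 0.399).

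The ratio of FADS2 to FADS1 within a library compares the pair directly. It was 0.73, 0.78 and 0.73 in OE and 0.55, 0.52 and 0.51 in Vector, a log2 difference of 0.50 with no overlap (exact two-sided permutation p = 0.1, the smallest value that 3 against 3 libraries allow). Under the hairpins the ratio was 1.18, 1.03 and 0.85 in shGPD1L and 1.22, 1.22 and 1.05 in shNC, with overlapping groups (exact two-sided permutation p = 0.2). FADS2 transcripts were thus the less abundant of the pair in all OE and Vector libraries, and the more abundant in all shNC libraries. The same ratio for ACSL4 to ACSL3 was 0.30, 0.28 and 0.30 in OE and 0.25, 0.28 and 0.27 in Vector, and 0.56, 0.54 and 0.40 in shGPD1L and 0.65, 0.55 and 0.57 in shNC, with exact two-sided permutation p = 0.2 in either comparison. After Benjamini-Hochberg adjustment over these 4 exact permutation tests each p was 0.2, and 0 of them could have reached 0.05.

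**Figure D2:**
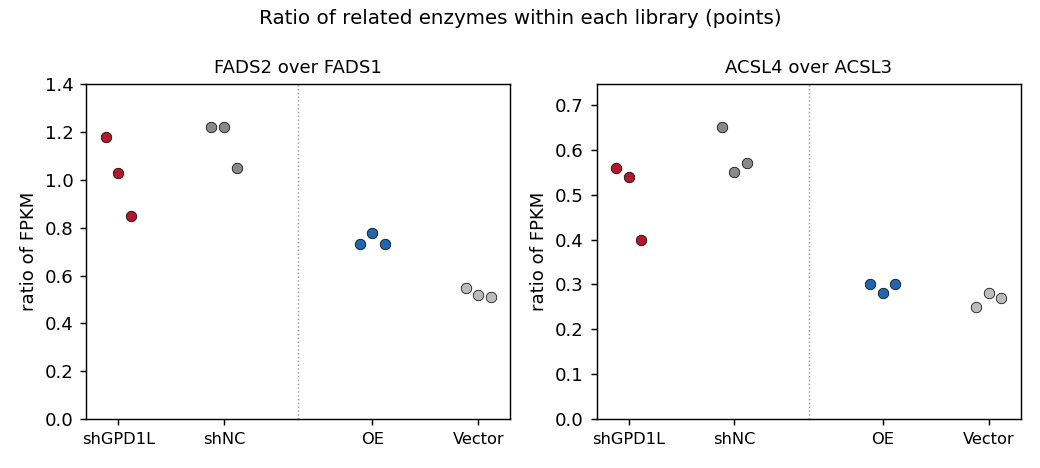
Ratio of the FPKM of FADS2 to FADS1 (left) and of ACSL4 to ACSL3 (right) within each library, on linear axes from 0; points are libraries and the dotted line separates the tables. The FADS2 to FADS1 ratio is 0.73 to 0.78 in OE and 0.51 to 0.55 in Vector, and spreads from 0.85 to 1.18 in shGPD1L and from 1.05 to 1.22 in shNC.

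FADS1 and FADS2 lie on opposite strands and share 490 exon bases, 4.79% of those annotated for FADS1 and 4.44% for FADS2. FADS2 also shares 49 exon bases with FEN1, a flap endonuclease gene of DNA replication on the same strand. FEN1 moved the other way from FADS2 in the overexpression line, falling to 19.5 ± 0.83 FPKM in OE, against 29.8 ± 3.0 FPKM in Vector (SD, n = 3 each; log2 change -0.58, limma adjusted p = 0.00188). In the hairpin lines FEN1 was at 36.4, 38.1 and 20.9 FPKM in shGPD1L and at 37.2, 30.9 and 37.6 FPKM in shNC, so the low value is that of shGPD1L replicate 3. The labels do not state that reads were assigned by strand, and reads of the shared bases cannot be told apart.

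Among the acyltransferases, LPCAT3 fell in the overexpression line. LPCAT3 (ENSG00000111684; chromosome 12, 6976186 to 7018510, minus strand) places arachidonate and linoleate on lysophospholipids. It was listed at 10.3, 10.5 and 11.0 FPKM in OE and at 12.4, 14.6 and 13.3 FPKM in Vector. No OE library reached the lowest Vector library, and the mean was 21.2% lower (log2 change -0.31, 95% interval -0.47 to -0.16, SE 0.067, limma adjusted p = 0.0139). Under the hairpins it was at 9.61, 9.25 and 10.7 FPKM in shGPD1L and at 9.17, 10.8 and 8.78 FPKM in shNC, with overlapping groups (95% interval of the log2 change -0.20 to 0.27, limma adjusted p = 0.896).

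The LPCAT3 value carries a limit of annotation. Its exons share 3100 bases, 65.6% of all its exon bases, with EMG1, a ribosome biogenesis gene on the opposite strand. EMG1 was at 13.2, 14.0 and 13.2 FPKM in OE and at 12.2, 11.7 and 12.0 FPKM in Vector, on the other side of its control from LPCAT3 and not called (log2 change 0.16, limma adjusted p = 0.0664). Without strand, reads from the 2 genes cannot be told apart over the shared bases, and the LPCAT3 level is therefore uncertain.

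MBOAT2 (ENSG00000143797; chromosome 2, 8852690 to 9003813, minus strand) is an acyltransferase that favours oleate, a monounsaturated acid, and has been linked to resistance to ferroptosis. It was at 6.16, 5.54 and 5.77 FPKM in OE and at 5.78, 5.50 and 5.49 FPKM in Vector, and at 6.34, 7.02 and 7.12 FPKM in shGPD1L and at 7.20, 7.00 and 7.35 FPKM in shNC. The groups overlapped in each comparison. The 95% interval of the log2 change ran from -0.10 to 0.20 in the overexpression (limma adjusted p = 0.625) and from -0.26 to 0.13 in the knockdown (limma adjusted p = 0.743).

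The ether lipid genes FAR1 and AGPS were lower in all 3 shGPD1L libraries than in any shNC library, without passing the test in that comparison. FAR1 (ENSG00000197601; chromosome 11, 13668670 to 13732346, plus strand) reduces fatty acyl-CoA to the fatty alcohol of ether lipids. It was at 18.8, 19.9 and 15.7 FPKM in shGPD1L and at 22.1, 20.8 and 24.7 FPKM in shNC, a mean 19.5% lower (log2 change -0.30, 95% interval -0.55 to -0.05, limma adjusted p = 0.244). In the other lines it was at 26.6, 24.3 and 24.2 FPKM in OE and at 23.8, 23.1 and 21.9 FPKM in Vector, where the OE libraries were the higher ones (log2 change 0.12, limma adjusted p = 0.159).

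AGPS (ENSG00000018510; chromosome 2, 177392644 to 177559299, plus strand) exchanges the acyl chain for that alcohol. It was at 16.4, 16.2 and 14.4 FPKM in shGPD1L and at 18.8, 20.0 and 20.6 FPKM in shNC, a mean 20.7% lower (log2 change -0.32, 95% interval -0.52 to -0.12, limma adjusted p = 0.15). AGPS had the smallest unadjusted p of the 9 genes in the knockdown (limma unadjusted p = 0.00579). In the other lines it was at 22.7, 20.7 and 21.1 FPKM in OE and at 20.1, 19.1 and 19.8 FPKM in Vector, without overlap and without a call (log2 change 0.12, limma adjusted p = 0.139).

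POR (ENSG00000127948; chromosome 7, 75899200 to 75986855, plus strand), the reductase that passes electrons to microsomal cytochromes P450 and has been linked to phospholipid peroxidation, was the most abundant transcript of the 9 in every group. It was at 70.1, 77.5 and 74.3 FPKM in OE and at 90.9, 82.0 and 79.0 FPKM in Vector, a mean 11.9% lower that was not called (log2 change -0.18, 95% interval -0.32 to -0.04, limma adjusted p = 0.0691). It was at 56.6, 52.8 and 65.8 FPKM in shGPD1L and at 56.4, 59.3 and 54.1 FPKM in shNC, with overlapping groups (log2 change 0.04, limma adjusted p = 0.879).

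Counted together, 3 of 9 genes were called in the overexpression, ACSL4 and FADS2 higher and LPCAT3 lower, or 33.3%. Of all 12208 genes tested there, 22.4% were called, so that the count among so few genes lies near that of the table. With library totals set equal 71.5% of all calls in that table were higher, against 54.2% in the values as deposited; ACSL4 and FADS2 stayed higher and LPCAT3 lower, and called, in all 14 alternative analyses. In the knockdown 0 of 9 were called, and 4 had an unadjusted limma p under 0.05, as did 16.3% of all genes tested. There, 0.592% of 12156 genes were called, 0.477% lower, and without shGPD1L replicate 3 5.01% were called, 3.21% lower, where the count among the 9 genes was also 0.

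Groups that did not overlap were frequent in both tables. In the knockdown 4 of 9 genes had shGPD1L libraries wholly below shNC, against 15.1% of all genes tested, and 0 wholly above, against 9.54%. In the overexpression 5 of 9 had OE libraries wholly above Vector, against 24.2% of all genes tested, and 3 wholly below, against 17.6%. The median log2 change of the 9 genes was -0.17 in the knockdown, beside -0.04 over all genes tested, and 0.12 in the overexpression, beside 0.02. Relative to the mean of the other 2 shGPD1L libraries, shGPD1L replicate 3 was lower for FAR1 (-0.28 log2 units), AGPS (-0.17), FADS2 (-0.16) and ACSL4 (-0.06). It was higher for ACSL3 (0.40), POR (0.26), LPCAT3 (0.16), FADS1 (0.16) and MBOAT2 (0.08). Over all genes tested this deviation ran from -0.45 to 0.34 between the 10th and 90th percentiles. Without this library the log2 changes of ACSL4, FADS2, FAR1 and AGPS were -0.21, -0.30, -0.21 and -0.26, none of them called, and all 9 genes had a log2 change below 0.

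The change of each gene in the overexpression was then set against its change in the knockdown, as the OE minus Vector difference less the shGPD1L minus shNC difference, in 1 fit over all 12 libraries. Of 9 genes 4 were called, each toward a higher value, and 0 toward a lower one. Of all 11208 genes tested 14.1% were called, 9.14% higher and 5% lower, while 44.4% of the 9 genes were. With quantile normalization 49.9% of the calls of the table were higher, against 64.6% in the values as deposited. The comparisons share no libraries, but the directions of several of these genes in each comparison were known when the set was drawn up.

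FADS2 had the largest difference of the effects among the 9 genes, at 0.68 (95% interval 0.40 to 0.97, SE 0.13, limma adjusted p = 0.0077), being lower in shGPD1L than in shNC and higher in OE than in Vector. ACSL4 followed the same order with the narrowest error, at 0.49 (95% interval 0.31 to 0.66, SE 0.078, limma adjusted p = 0.00346). Both calls held in all 20 alternative analyses, with adjusted p from 0.00493 to 0.0392 for FADS2 and from 0.00137 to 0.0387 for ACSL4. AGPS differed by 0.44 (95% interval 0.23 to 0.65, limma adjusted p = 0.0126) and was called in 19 of the 20 alternatives. FAR1 differed by 0.42 (95% interval 0.15 to 0.70, limma adjusted p = 0.0455) and was called in 7 of the 20. The FAR1 call was lost without any 1 of 9 libraries, namely shNC replicate 1 or 3, shGPD1L replicate 1, or any Vector or OE replicate, with adjusted p from 0.056 to 0.113 in those cases.

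The other 5 genes did not pass. LPCAT3 differed by -0.35 (95% interval -0.62 to -0.08, limma adjusted p = 0.0769), POR by -0.22 (0.243), ACSL3 by 0.15 (0.528), MBOAT2 by 0.11 (0.456) and FADS1 by 0.08 (0.648), where the numbers in parentheses after the first gene are limma adjusted p-values. LPCAT3 was called without shNC replicate 2, at -0.43 (limma adjusted p = 0.038), and ACSL3 without shGPD1L replicate 3, at 0.28 (limma adjusted p = 0.0384). The summed colon epithelium markers given above were also lower in shGPD1L than in shNC and higher in OE than in Vector, without overlap. In the knockdown the keratins carried most of the difference. In the overexpression only KRT8, KRT18 and KRT19 were higher in OE, while all the other markers were lower. The part of these markers in the results for ACSL4, FADS2, AGPS and FAR1 was not tested.

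**Figure D3:**
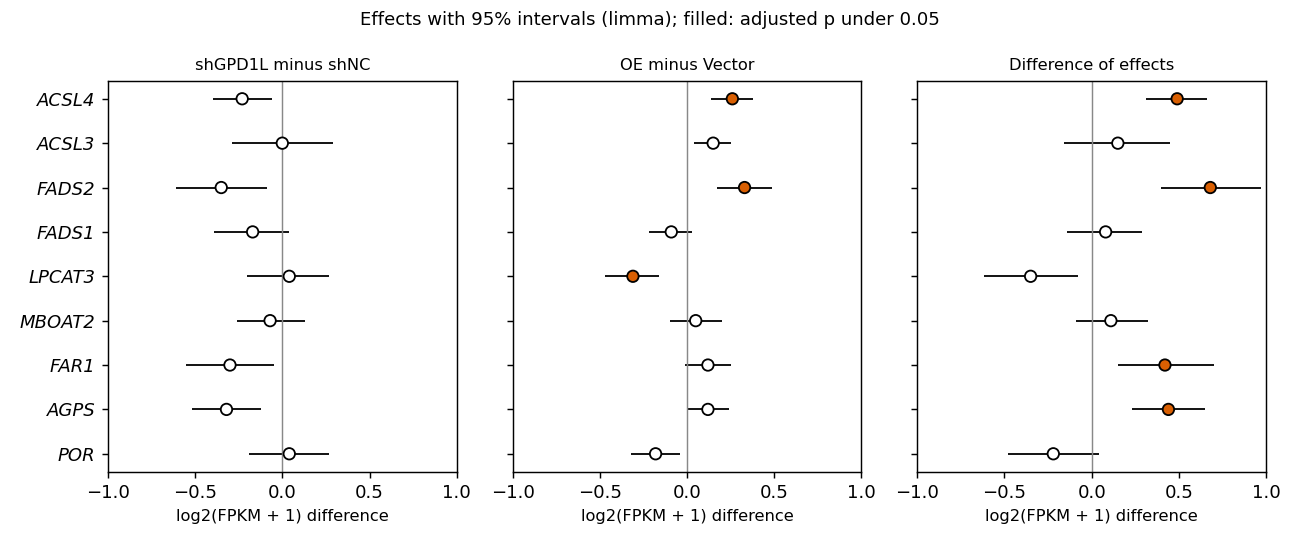
Change of each of the 9 genes on the log2(FPKM + 1) scale in shGPD1L minus shNC (left), in OE minus Vector (middle), and the difference of the effects, the middle less the left (right); lines are 95% intervals of limma and filled points are genes with an adjusted p under 0.05. ACSL4 and FADS2 are filled in the middle and right panels, at 0.26 and 0.33 and at 0.49 and 0.68, LPCAT3 in the middle panel at -0.31, and FAR1 and AGPS in the right panel.

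The order of the levels was similar within each group. POR was highest and ACSL3 next, followed by FAR1, AGPS and, except in Vector, ACSL4, while LPCAT3, FADS1, FADS2 and MBOAT2 filled the lower places. In shGPD1L the ranges over libraries of MBOAT2, FADS2 and FADS1 overlapped, as did those of FAR1 and AGPS. In shNC those of ACSL3 and FAR1 overlapped, and so did each neighbouring pair among LPCAT3, FADS2, FADS1 and MBOAT2. In OE and in Vector no neighbours overlapped. The levels ran from the 33.4th percentile of listed genes for FADS2 in Vector to the 95.1st for POR in Vector.

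The tables may have been normalized separately and were therefore not tested against each other. Set side by side, the deposited levels of ACSL3, FADS2 and ACSL4 differed between the control lines. ACSL3 averaged 49.6 ± 1.7 FPKM in OE and 44.6 ± 1.3 FPKM in Vector, and 24.6 ± 4.3 FPKM in shGPD1L and 24.4 ± 1.9 FPKM in shNC (SD, n = 3 each). FADS2 averaged 6.40 ± 0.25 FPKM in OE and 4.88 ± 0.32 FPKM in Vector, and 6.59 ± 0.82 FPKM in shGPD1L and 8.68 ± 0.95 FPKM in shNC, so that its mean in OE was below that in shGPD1L. ACSL4 averaged 14.4 ± 0.20 FPKM in OE and 11.9 ± 0.35 FPKM in Vector, and 12.1 ± 0.41 FPKM in shGPD1L and 14.3 ± 0.17 FPKM in shNC. As deposited, the 4 group means of GPD1L were lowest in shGPD1L, then shNC, Vector and OE. Those of ACSL4 and FADS2 had another order, and what normalization contributed to it was not tested.

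Other genes of these pathways were counted from 7 lists of 79 genes in all, of which 67 were tested in each comparison. In the overexpression 2 of the 67 rose and 11 fell, or 19.4% called, beside 22.4% of all genes tested, of which 12.2% rose and 10.3% fell. Among those that fell, ELOVL3 and PLA2G2A averaged under 1 FPKM in OE and passed the filter only through Vector. Of the 13 called genes, 4 (ACSL6, ELOVL1, LPCAT1 and SCD) kept the call in every alternative analysis that tested them, and 9 lost it in at least 1. In the knockdown 0 were called, with 15 of 67 at an unadjusted limma p under 0.05, beside 16.3% of all genes tested. Without shGPD1L replicate 3, 2 of the 67 fell, or 2.99%, beside 3.21% of all genes tested. They were the synthetase gene ACSL5 (log2 change -0.33, limma adjusted p = 0.0326) and FAR2, the relative of FAR1 (log2 change -0.37, limma adjusted p = 0.0345). The median log2 change of the 67 genes was -0.05 in the knockdown, beside -0.04 over all genes tested, and -0.01 in the overexpression, beside 0.02. In the difference of the effects 10 of 66 were higher and 6 lower, or 24.2% called, beside 14.1%.

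Of 8 other genes of fatty acid activation tested, 1 rose and 2 fell in the overexpression. This was 37.5% of a short list, beside 22.4% of all genes tested. SLC27A4, a fatty acid transport protein gene with acyl-CoA synthetase activity, was 15.5% higher in mean FPKM in OE than in Vector (limma adjusted p = 0.0317), a call lost without any 1 of the 6 libraries (adjusted p from 0.0508 to 0.1). The synthetase gene ACSL6 fell to 1.24 ± 0.014 FPKM in OE, against 2.61 ± 0.22 FPKM in Vector, and ACSL1 to 4.31 ± 0.28 FPKM in OE, against 5.47 ± 0.086 FPKM in Vector (SD, n = 3 each; limma adjusted p = 0.00182 and 0.022). The ACSL1 call was lost without Vector replicate 1, 2 or 3 or OE replicate 3, with limma adjusted p from 0.0542 to 0.0705.

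Of 10 genes of desaturation and its electron donors, 0 rose and 4 fell in the overexpression, beside 12.2% and 10.3% of all genes tested. SCD, the desaturase gene that makes monounsaturated acids, was listed at 71.9, 77.6 and 75.4 FPKM in OE and at 91.8, 96.2 and 88.9 FPKM in Vector, a fall without overlap (log2 change -0.30, SE 0.048, limma adjusted p = 0.00489). In the knockdown table SCD was at 36.6, 37.7 and 50.5 FPKM in shGPD1L and at 31.0, 33.5 and 30.3 FPKM in shNC, higher in all shGPD1L libraries and not called (log2 change 0.37, limma adjusted p = 0.221). Its difference of the effects was -0.67 (limma adjusted p = 0.0116), opposite in sign to that of FADS2. The other 3 called were SCD5, a second gene of that activity (log2 change -0.28), FADS3, a relative of FADS1 and FADS2 (-0.20), and CYB5R2, a cytochrome b5 reductase gene (-0.49). The FADS3 call was lost with library totals set equal (limma adjusted p = 0.0657) and without any 1 library other than Vector replicate 3 (0.0633 to 0.0973). The CYB5R2 call was lost without Vector replicate 1 or 2 or OE replicate 1 or 3 (0.0519 to 0.0561), and the SCD5 call without Vector replicate 2 or OE replicate 1 or 2 (0.0512 to 0.0697).

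Of 9 genes of elongation, ELOVL1, which lengthens very long saturated and monounsaturated chains, rose to 62.3 ± 2.8 FPKM in OE, against 49.2 ± 2.1 FPKM in Vector (SD, n = 3 each; log2 change 0.33, limma adjusted p = 0.00393). TECR, the reductase of the elongation cycle (log2 change -0.22), and the elongase gene ELOVL3 (-0.46) were called lower. ELOVL3 was at 0.802 ± 0.31 FPKM in OE and 1.46 ± 0.069 FPKM in Vector (SD, n = 3 each). It passed the filter of a mean of 1 FPKM only through its level in Vector, so its call carries little weight. In all, 33.3% of this short list was called, beside 22.4% of all genes tested. The TECR call was lost without any 1 library other than Vector replicate 1 (limma adjusted p from 0.0582 to 0.0762), and the ELOVL3 call without any 1 other than OE replicate 3 (0.0782 to 0.108). Of 13 other acyltransferase genes 0 rose and 1 fell, or 7.69% called, beside 22.4% of all genes tested. The gene that fell was LPCAT1, which places saturated chains on phosphatidylcholine. It was at 29.3 ± 1.7 FPKM in OE and 37.7 ± 1.7 FPKM in Vector (SD, n = 3 each; log2 change -0.35, limma adjusted p = 0.00503). LPCAT1 had the opposite order in the hairpin lines, at 44.0 ± 1.8 FPKM in shGPD1L and 37.9 ± 0.32 FPKM in shNC (SD, n = 3 each), without a call there (limma adjusted p = 0.221).

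Of 14 other genes of ether lipid synthesis tested, 0 were called in the overexpression, with 3 at an unadjusted limma p under 0.05, beside 37.9% of all genes tested. In the knockdown 0 were called as well, with 4 at that unadjusted p, beside 16.3%. In the difference of the effects 3 of the 14 were called, all higher, beside 9.14% of all genes tested. They were GNPAT, which attaches the starting acyl chain to dihydroxyacetone phosphate (0.36), FAR2 (0.41) and SELENOI, an ethanolamine phosphotransferase gene (0.40). Without any 1 library FAR2 stayed called. GNPAT lost the call without shNC replicate 2 or 3, any Vector replicate, or OE replicate 1 or 2, with limma adjusted p up to 0.0669. SELENOI lost it without shNC replicate 3, Vector replicate 3, or OE replicate 1 or 2, with limma adjusted p up to 0.0628. With the replicate block all 3 lost the call (limma adjusted p from 0.0723 to 0.0762). GNPAT also lost it with median-of-ratios scaling and with quantile normalization of the libraries (limma adjusted p = 0.0533 and 0.055). Under the hairpins GNPAT was at 14.2 ± 0.99 FPKM in shGPD1L and 17.2 ± 0.85 FPKM in shNC, and FAR2 at 8.32 ± 0.27 FPKM in shGPD1L and 11.0 ± 0.29 FPKM in shNC (SD, n = 3 each). Neither was called there (limma adjusted p = 0.202 and 0.0964).

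Of 11 phospholipase genes tested in the overexpression, 0 rose and 1 fell, or 9.09% called, beside 22.4% of all genes tested. The gene that fell was PLA2G2A, a secreted enzyme gene with no row in the knockdown table. PLA2G2A passed the filter of a mean of 1 FPKM only through its level in Vector, so its call carries little weight. It was at 0.779 ± 0.42 FPKM in OE and 2.14 ± 0.58 FPKM in Vector (SD, n = 3 each; limma adjusted p = 0.0204), a call lost without Vector replicate 3 (limma adjusted p = 0.0592). Of the peroxidation list 2 genes were tested, and PEBP1, whose protein binds lipoxygenases, fell to 133 ± 3.5 FPKM in OE, against 152 ± 4.1 FPKM in Vector (SD, n = 3 each; limma adjusted p = 0.0136). The PEBP1 call was lost without Vector replicate 1 or 2 (limma adjusted p = 0.0502 and 0.0544). PEBP1 shares 9.49% of its exon bases with VSIG10 on the opposite strand. ALOXE3, an epidermal lipoxygenase gene, was at 5.12 ± 0.21 FPKM in OE and 4.44 ± 0.35 FPKM in Vector, and at 3.86 ± 0.60 FPKM in shGPD1L and 5.64 ± 0.32 FPKM in shNC (SD, n = 3 each). It was called in neither comparison, while its difference of the effects was 0.63 (limma adjusted p = 0.0115).

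**Figure D4:**
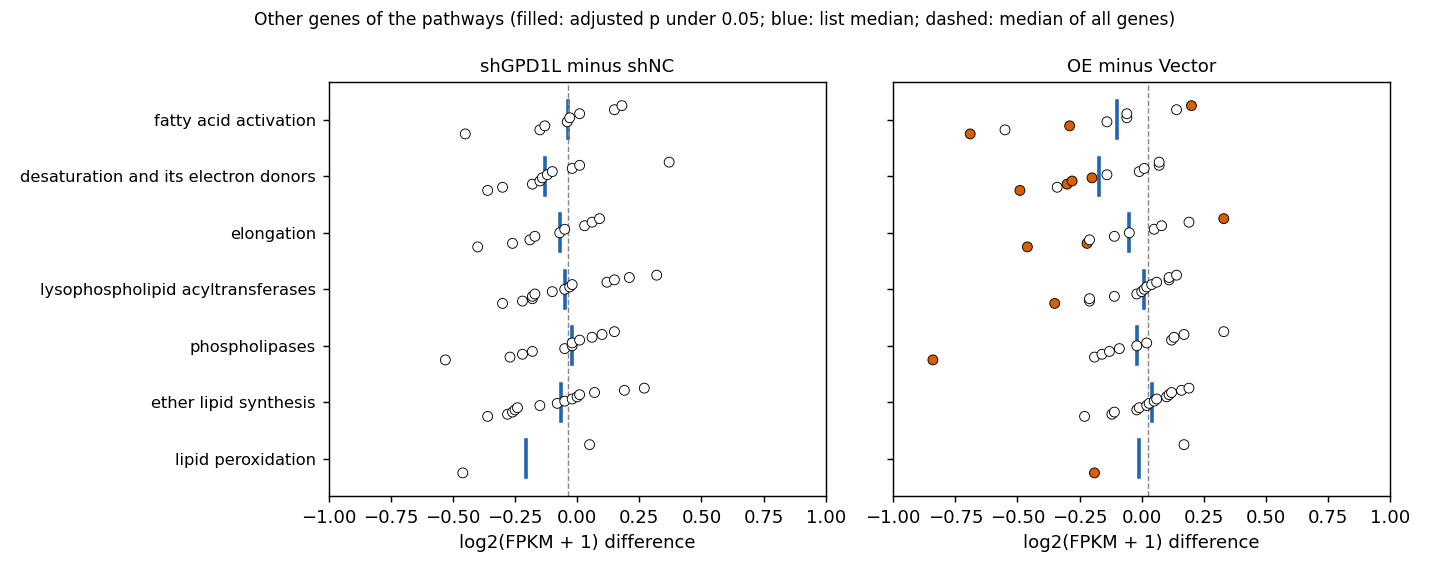
Change on the log2(FPKM + 1) scale of the other tested genes of each list in shGPD1L minus shNC (left) and OE minus Vector (right); points are genes, filled where the limma adjusted p was under 0.05, blue bars are list medians and the dashed line is the median of all genes tested. No point is filled on the left; on the right 2 filled points lie above 0, SLC27A4 at 0.20 and ELOVL1 at 0.33, and 11 below it.

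The sequences before the transcription start are shown for the genes called in the overexpression, ACSL4, FADS2 and LPCAT3, and for FADS1 as the neighbour of FADS2. Each is the 250 bases upstream of the start in RefSeq (GRCh38.p14), 5′ to 3′ on the strand of the gene. RefSeq windows were found for 8 of the 9 genes, with 2 for FADS2, of which the downstream one is shown. For FADS1 and FADS2 these windows lie wholly inside the gene spans given above, which are from GENCODE. Sequence before the outermost GENCODE starts of both genes was not searched, nor was that before any other start inside their spans. The promoters in use in SW480 may therefore lie outside these windows. Capitals mark TGACG, the core of the cyclic AMP response element that ATF and CREB factors bind, and CCAAT, the box bound by NF-Y, each on either strand. ATF3, which the series title names, belongs to the ATF family.
ACSL4 (chrX:109733258-109733507, minus strand): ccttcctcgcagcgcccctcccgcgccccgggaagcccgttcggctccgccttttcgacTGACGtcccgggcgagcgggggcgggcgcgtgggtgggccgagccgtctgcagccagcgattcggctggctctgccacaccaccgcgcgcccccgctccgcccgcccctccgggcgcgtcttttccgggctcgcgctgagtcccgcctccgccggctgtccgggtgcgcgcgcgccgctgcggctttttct
FADS2 (chr11:61816154-61816403, plus strand): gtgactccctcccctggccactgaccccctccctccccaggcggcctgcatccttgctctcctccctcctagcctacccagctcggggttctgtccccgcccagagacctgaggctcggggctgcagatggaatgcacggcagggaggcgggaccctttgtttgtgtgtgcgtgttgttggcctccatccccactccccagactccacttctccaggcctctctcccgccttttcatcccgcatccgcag
FADS1 (chr11:61817004-61817253, minus strand): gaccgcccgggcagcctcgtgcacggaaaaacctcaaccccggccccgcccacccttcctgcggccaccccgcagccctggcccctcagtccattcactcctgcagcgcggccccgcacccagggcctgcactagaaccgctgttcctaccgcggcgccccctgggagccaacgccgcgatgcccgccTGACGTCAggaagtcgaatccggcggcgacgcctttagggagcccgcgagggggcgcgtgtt
LPCAT3 (chr12:7018477-7018726, minus strand): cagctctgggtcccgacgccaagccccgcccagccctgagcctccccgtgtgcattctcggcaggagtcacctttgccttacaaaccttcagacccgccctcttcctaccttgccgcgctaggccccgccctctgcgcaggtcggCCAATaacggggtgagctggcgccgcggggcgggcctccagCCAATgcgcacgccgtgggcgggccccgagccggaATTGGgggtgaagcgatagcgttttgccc

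The whole response element TGACGTCA was found in the FADS1 window, its outermost base 62 bases before the start, and in no other window of the 9 genes, beside 1.65% of all 35116 RefSeq windows of this length. It holds TGACG on both strands. TGACG alone was found once in ACSL4, 191 bases before the start, and once in FAR1, and in 21.2% of all windows. CCAAT occurred 3 times in LPCAT3, at 105, 64 and 29 bases before the start, 3 times in FAR1 and once in ACSL3, and in 32% of all windows. Neither RefSeq window of FADS2 held either motif, which leaves other starts of FADS2 unsearched. A GC box, GGGCGG on either strand, occurred in the shown windows of ACSL4 (3 times), FADS1 (2), FADS2 (1) and LPCAT3 (5), and in 42.6% of all windows. It also occurred in the windows of ACSL3 (3 times), FAR1 (2), AGPS (1) and MBOAT2 (7), and not in the other FADS2 window.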

How the data were processed

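The authors deposited 2 tables of FPKM, 1 for each comparison; the submitters' processing notes list HISAT2, StringTie, DESeq2 and, as build, GRCh38, with no versions or roles. Of strandedness, the annotation and earlier filters nothing is stated in the labels. Low values shared no common step, so the depth is unknown and no counting interval is given. Groups were taken from the sample titles. Some genotype labels of the knockdown libraries count up inside the gene name (shGPD2L, shGPD3L), and so do some of the overexpression libraries, which was read as a slip. Coordinates and exon overlaps are from GENCODE release 29.

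Genes averaging 1 FPKM or more in a table were tested on log2(FPKM + 1) with limma 3.58.1 in R 4.3.3 (eBayes with trend, Benjamini-Hochberg over all genes tested) within each table; the difference of the effects was fitted on the annotated genes of both tables. Figures were drawn with matplotlib 3.10.9. The fits were checked on simulated data, in which 100 genes were changed by 0.5 log2 units and 100 by 1. Far more genes were called in the overexpression and in the difference of the effects, so the share recovered there may differ. With a simulated log2 change of 0.5, 38 of 100 genes were called in the knockdown and 78 of 100 in the overexpression. In the difference of the effects 44 of 100 were called. A gene that was not called in the knockdown may thus still have changed. The genes and lists were chosen with earlier results of these data known. Named pathway genes were all called in the knockdown or the difference of the effects, and in the overexpression at most 4 per list and direction by size of change. Alternatives were another pseudocount, other filters and scalings, no trend, a replicate block and leaving out each library. No 2 libraries of a group held identical values.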

Additional observations from a re-analysis of the deposited data

Results flagged for a closer look

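The effects of GPD1L overexpression and of its knockdown differed in the interaction fit for the genes given here, on the log2 scale as the OE minus Vector difference less the shGPD1L minus shNC difference. GPD1L itself differed by 2.86. Of the 9 remodelling genes, FADS2 differed by 0.68, ACSL4 by 0.49, AGPS by 0.44 and FAR1 by 0.42, as described above.

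Of the other pathway genes, 10 differed toward a higher value. ALOXE3 differed by 0.63 and ACSL5 by 0.59. The elongation genes ELOVL1 and HACD2, the second a dehydratase gene, differed by 0.50 and 0.34. The acyltransferase genes LCLAT1 and LPGAT1 differed by 0.41 and 0.29. The phospholipase gene PNPLA8 differed by 0.38. The ether lipid genes FAR2, SELENOI and GNPAT differed by 0.41, 0.40 and 0.36.

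A further 6 differed toward a lower value. SCD differed by -0.67. The acyltransferase genes LPCAT1 and MBOAT7 differed by -0.56 and -0.53. The synthetase genes ACSL6 and ACSL1 differed by -0.53 and -0.47. PLA2G16, a phospholipase gene, differed by -0.35.

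Of these 16 pathway genes, ACSL5, ELOVL1 and LPCAT1 kept the call in all 20 alternative analyses. ACSL6, ALOXE3, FAR2, MBOAT7 and SCD lost it with the replicate block and kept it without any 1 library. ACSL1, GNPAT, HACD2, LCLAT1, LPGAT1, PLA2G16, PNPLA8 and SELENOI lost it without at least 4 of the 12 libraries, each left out in turn, with adjusted p of up to 0.1. Each of these genes also lost it with the replicate block. GNPAT, LCLAT1, LPGAT1 and PNPLA8 lost it with median-of-ratios scaling and with quantile normalization as well. HACD2 lost it with median-of-ratios scaling, and PLA2G16 with library totals set equal.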

How the results depend on the processing

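Counts of all called genes depended on the libraries and on some settings. In the knockdown 72 genes were called, 27 with quantile normalization and 0 to 609 without any 1 library, the highest without shGPD1L replicate 3. At 0 calls, without shNC replicate 2 or 3, limma gave 1408 and 1126 genes at an unadjusted p under 0.05. In the overexpression 2740 were called, and 1550 to 1980 without any 1 library. For the difference of the effects 1584 were called, and 790 to 2572 without any 1 library. Same-numbered libraries did not deviate together (correlations -0.18 to 0.022), so the numbers were not treated as pairs; with a replicate block 3, 2021 and 483 genes were called in the knockdown, the overexpression and the difference, and AGPS and FAR1 missed the threshold in the difference (adjusted p 0.0635 and 0.127). Signs changed for genes near 0. Without any 1 library the knockdown log2 change ran from -0.13 to 0.07 for ACSL3, -0.018 to 0.12 for LPCAT3, -0.048 to 0.11 for POR, -0.34 to 0.084 for FEN1 and -0.12 to 0.12 for EMG1, and quantile normalization gave FADS1 a difference of -0.004. Of 126 alternative values of the 9 genes in the overexpression 121 kept their direction and their side of the threshold and 5 newly passed it; in the knockdown 121 of 126 did and 5 changed sign. In the difference 163 of 180 did, 14 lost the call, 13 of them for FAR1, and 2 gained it. Of 177 alternative values of the 13 other pathway genes called in the overexpression 42 lost the call, and of 317 of the 16 called in the difference, recomputed after seeing the data, 79 did. The number of reads behind the values is unknown, so what depth limits was not tested.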
